A study of Mus musculus with 20 samples.

Results

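The genes examined here were the receptor chains, kinases, transcription factor and feedback inhibitors through which leukemia inhibitory factor (LIF) signals. They were 10 genes, chosen by symbol, of the 55573 genes in the expression table: the ligand Lif, the receptor chains Lifr, Il6st (gp130) and Osmr, the kinases Jak1 and Jak2, the transcription factor Stat3, and the inhibitors Socs1, Socs2 and Socs3. All 10 were found in the table, and all 10 had more than 3 counts in every library, so no member was lost to a filter on low values. Levels were measured by RNA-seq in 20 libraries of mouse embryoid body (EB) cultures, aggregates of pluripotent cells that give rise to the embryonic germ layers as they differentiate.

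The cultures came from 4 lines of induced pluripotent stem cells (iPSCs), namely WT#1-4 and WT#20D-17, which are wild type (WT), and #5-8 and #5-23, which are Nox4 knockouts (Nox4-/-), with 1 library per line on each of days 0, 3, 5, 7 and 14. Nox4 encodes an NADPH oxidase that makes reactive oxygen species. All lines were made from mouse embryonic fibroblasts with retroviruses carrying Oct4, Sox2, Klf4 and c-Myc under puromycin selection, and each is a clonal line grown from a picked colony, so a genotype is represented by 2 clones. Every line was kept with LIF on mitomycin C-treated feeder fibroblasts, then dispersed, aggregated in hanging drops in medium without LIF for 3 days, and plated on gelatin. The labels' protocol counts the days from plating and gives day 10 as the last, whereas their titles give day 14, which is used here, so whether day 0 preceded or followed the hanging drops is not settled by the sources. The deletion in Nox4 is the only difference between the genotypes that the labels give, and neither genotype received a further treatment.

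LIF binds LIFR, which pairs with gp130, the signal-transducing chain shared by the interleukin-6 family of cytokines. The JAK kinases bound to these chains phosphorylate STAT3, which enters the nucleus and, in mouse pluripotent cells, sustains self-renewal. SOCS proteins are made in response to STAT activity and shut the receptor off, SOCS3 by binding gp130 and JAK, SOCS1 by inhibiting JAK, and SOCS2 mainly downstream of growth hormone and STAT5. OSMR pairs with gp130 as the receptor of oncostatin M.

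Before the values, the libraries were examined against their labels. Total counts ranged from 20294968 to 27708023, and the value of 3 counts, taken as the limit of detection, was 0.109 to 0.157 CPM, the count relative to a fixed library total after scaling by TMM factors, which adjust for a few genes taking a large share of a library. Intervals from counts cover counting error only. Nox4 had between 3 and 22 counts in the libraries of WT#1-4, 56 to 203 in those of WT#20D-17 and 0 to 2 in the 10 Nox4-/- libraries. Of the 8 pluripotency genes listed as a check, 4 were all but absent in 3 of the lines, and Utf1 was all but absent in both Nox4-/- lines. Nanog was 382.6 CPM on day 0 of WT#20D-17, but at most 0.874 in WT#1-4, 1.03 in Nox4-/- #5-8 and 0.693 in Nox4-/- #5-23 on any day. Summed over Nanog, Zfp42, Esrrb and Dppa5a, a choice made after their values were seen, WT#20D-17 fell from 1448 CPM on day 0 to 484, 144, 89.5 and 49.5 on days 3, 5, 7 and 14, and no library of the other lines exceeded 3.3 CPM. Fgf4, a growth factor gene of pluripotent cells, went the other way, with 58.4 to 145.8 CPM in WT#1-4, 114.4 to 178.1 in Nox4-/- #5-8 and 168.2 to 191.6 in Nox4-/- #5-23, beside 93.4 CPM on day 0 and 2.26 on day 14 of WT#20D-17. Tdgf1 reached 668.7 CPM in WT#20D-17 and 41.5 in the other lines, and Utf1 reached 310.6 CPM in WT#20D-17, 8.35 in WT#1-4 and at most 1 count in a Nox4-/- library. Over the 7 listed genes without Pou5f1 the sum fell from 2520 to 71.3 CPM in WT#20D-17 and lay between 66.7 and 203.6 CPM in the other lines. Reads of Pou5f1, the remaining gene of the list, as of Sox2, Klf4 and Myc, may come from the transgenes. Since the listed genes did not go one way, the cultures of those 3 lines are called by their line and day and not by a pluripotent state.

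WT#20D-17 also stood apart in the markers of differentiated cells. The sum over 7 genes of primitive and visceral endoderm rose in that line from 394.5 CPM on day 0 to 2842 on day 7, against 19.9 to 130.9 CPM across all libraries of the other lines. The sum over 6 mesoderm genes rose from 50.7 CPM to 1100 on day 7, against 3.94 to 58.0 in the other lines. The 8 fibroblast genes, listed as markers of the feeder layer, were at 23.8 CPM on its day 0 and 3004 CPM on its day 14, against 5.22 to 112.3 CPM elsewhere. The sum of 5 ectoderm genes lay between 53.0 and 276.3 CPM in WT#20D-17 and between 49.8 and 476.5 CPM in the other lines. Values without WT#20D-17 are accordingly given beside the main results. In such bulk cultures, fewer cells expressing a gene and less of its RNA per cell cannot be told apart.

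**Figure D1:**
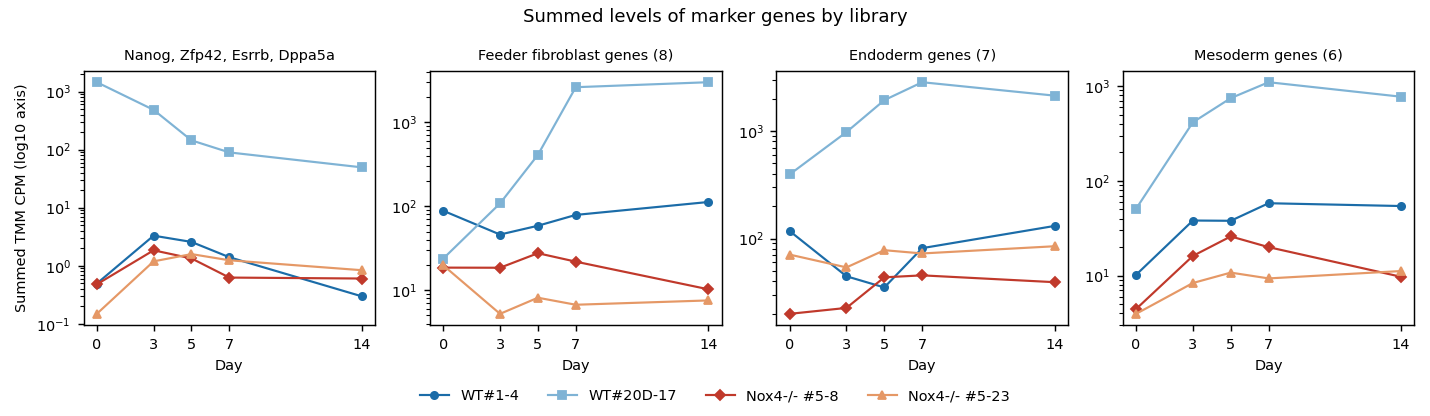
Summed TMM-scaled CPM (log10 axis) of 4 of the 8 listed pluripotency genes and of fibroblast, endoderm and mesoderm markers against day, 1 point per library and 1 line per iPSC line. WT#20D-17 began with 1448 CPM of Nanog, Zfp42, Esrrb and Dppa5a together, while the other 3 lines stayed at or below 3.3 CPM of these 4 genes on all 5 days. Among the listed genes not drawn, Fgf4 and Pou5f1 had higher means in the other lines than in WT#20D-17, and Tdgf1 and Utf1 lower ones.

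The members differed in level before any change with day. Because longer genes gather more reads, levels of different genes were compared per kilobase of exon. On day 0, Stat3 was highest with a mean over the 4 lines of 14.3 ± 8.66 CPM per kb (SD, n = 4), followed by Jak1 with 10.1 ± 2.52, Socs2 with 6.9 ± 4.04, Il6st with 6.71 ± 0.941, Osmr with 6.27 ± 4.67 and Lifr with 6.01 ± 3.0. Lif was at 3.72 ± 2.28, Socs3 at 2.04 ± 0.529, Jak2 at 1.7 ± 0.895 and Socs1 at 0.305 ± 0.23 CPM per kb. Of the neighbours in this order, Jak2 and Socs1 alone had ranges over the lines that did not overlap. On day 14 Stat3 was again first, with 22.6 ± 2.24 CPM per kb, but Socs3 was second with 19.1 ± 6.0 and Socs2 ninth with 1.98 ± 1.61, and every neighbouring pair overlapped.

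From day 0 to day 14 the feedback inhibitor Socs3 and the kinase Jak2 rose in all 4 lines, and Jak1, Lifr and Osmr rose as well. Socs2 fell in 3 lines, while the ligand, gp130, Stat3 and Socs1 were not called on any day. Days were compared in a fit with the line as a block, by edgeR's quasi-likelihood tests over the 20 libraries. The F-test over the later days called 4 of the 10 members (Lifr, Jak1, Jak2 and Socs3) at an FDR under 0.01, where 16.4% of the 19240 genes tested were called. Without WT#20D-17 it again called 4, where 21.5% of 18653 genes were, with Osmr in and Lifr out (FDR of 0.0114). Jak2 and Socs3 were called whichever line was left out, whereas the calls fell to 3 members without WT#1-4 (Jak2, Socs2 and Socs3), 3 without Nox4-/- #5-8 (Lifr, Jak2 and Socs3) and 2 without Nox4-/- #5-23. Against day 0, 0 members were called on day 3, when 0.161% of all genes were. On that day the smallest unadjusted p-values of the members in edgeR were 0.000751 (Jak2) and 0.00252 (Socs3), with FDRs of 0.0795 and 0.142. On day 5 and on day 7, 2 members were called, Jak2 and Socs3, where 2.29% and 10.8% of all genes were. On day 14 the count was 5 higher and 1 lower, a day on which 26.7% of all genes were called, 13.6% higher and 13% lower. The median log2 change of the members on day 14 was 1.01, beside 0.04 over all genes. Without WT#20D-17 the members called on day 14 were the same 5 higher and 0 lower, where 31.3% of genes were called, 16.3% higher. The count of higher members was 4 without WT#1-4 (Lifr lost), 4 without Nox4-/- #5-8 (Osmr lost), 3 without Nox4-/- #5-23 (Jak1 and Osmr lost) and 2, Jak2 and Socs3, without the block. How many of all genes were called also changed as a line or the block was left out, as given under the dependence on processing. The changes in these counts are therefore not a result about the members alone.

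**Figure D2:**
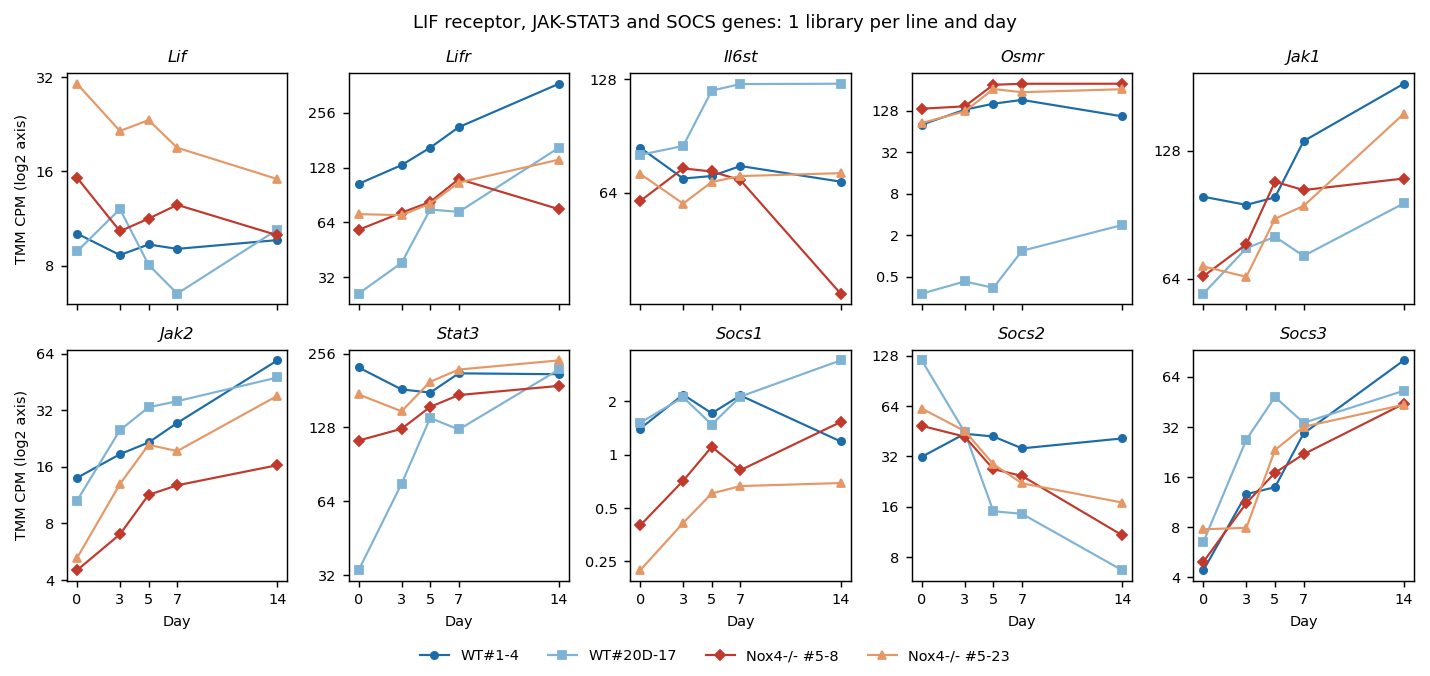
TMM-scaled CPM (log2 axes that differ between panels) of the 10 members against day, with 1 point per library and 1 line per iPSC line. Socs3 and Jak2 rose from day 0 in all 4 lines, Socs2 fell in 3 lines, and Osmr in WT#20D-17 stayed at or below 2.83 CPM.

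The ligand Lif was not called on any day. Its levels lay between 8.66 and 10.1 CPM in WT#1-4, between 6.53 and 12.1 in WT#20D-17 and between 10.0 and 15.3 in Nox4-/- #5-8. In Nox4-/- #5-23 they were 30.5, 21.5, 23.3, 19.0 and 15.1 CPM, and the lowest of these lay below 1 library of the other lines, day 0 of Nox4-/- #5-8. Day 0 was the highest of the 5 days in 3 lines, and 14 of the 16 later libraries lay below day 0, with a day 14 log2 change of -0.36 ± 0.22 (edgeR FDR of 0.208).

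Among the receptor chains, Lifr (chromosome 15, 7090614 to 7197489, plus strand) rose in all lines by day 14. Its levels in WT#1-4 were 104.1, 131.9, 164.5, 213.2 and 369.2 CPM, the highest of any line on each day. In WT#20D-17 they were 26.0, 38.3, 75.3, 73.0 and 164.5 CPM. The 2 WT lines thus enclosed both Nox4-/- lines on days 0, 3, 5 and 7. Nox4-/- #5-8 had 58.2, 72.3, 82.8, 110.6 and 75.5 CPM, and Nox4-/- #5-23 had 71.0, 70.1, 81.1, 105.8 and 141.4 CPM. Nox4-/- #5-8 was the only line whose level on day 14 was below that on day 7. The fitted log2 change on day 14 was 1.53 ± 0.28 (edgeR FDR of 0.000392), and 1.13 without WT#20D-17 (edgeR FDR of 0.00227). It missed the threshold without WT#1-4 (1.38, edgeR FDR of 0.011) and without the block (edgeR FDR of 0.0495). The F-test over days, called with 4 lines (FDR of 0.00254), was lost without WT#20D-17, WT#1-4 or Nox4-/- #5-23 (FDRs of 0.0114, 0.0655 and 0.0312). By line the fold of day 14 over day 0 was 3.55 in WT#1-4, 6.33 in WT#20D-17, 1.3 in Nox4-/- #5-8 and 1.99 in Nox4-/- #5-23.

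Il6st, which encodes gp130, showed no common course. It kept between 68.6 and 84.4 CPM in WT#1-4, and rose from 80.7 to 124.6 CPM in WT#20D-17. The levels were 60.9, 74.3, 73.0, 69.2 and 34.6 CPM in Nox4-/- #5-8 and between 59.99 and 72.2 CPM in Nox4-/- #5-23. Of the 16 later libraries 8 lay above day 0, and the day 14 log2 change was -0.08 ± 0.21 (edgeR FDR of 0.797), an estimate whose sign turned without Nox4-/- #5-8.

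Osmr was the member with the largest difference between lines. WT#1-4 had 80.6, 133.0, 162.4, 184.4 and 106.6 CPM, Nox4-/- #5-8 had 137.4, 148.8, 305.4, 316.0 and 316.4 CPM, and Nox4-/- #5-23 had 85.2, 125.8, 264.8, 238.6 and 263.4 CPM. WT#20D-17 had 0.287, 0.431, 0.349, 1.2 and 2.83 CPM, from 7, 10, 8, 27 and 54 counts. Its level on day 14 (95% Wilson interval 2.17 to 3.7 CPM) was above that on day 0 (0.139 to 0.592), and both were far below every library of the other lines. All 16 later libraries lay above day 0 of their line. The log2 change on day 14 was 1.54 ± 0.36 with 4 lines (edgeR FDR of 0.00308) and 1.1 without WT#20D-17 (edgeR FDR of 0.00117). The call was lost without Nox4-/- #5-8 (edgeR FDR of 0.0251), without Nox4-/- #5-23 (0.0376) and without the block (0.677). The F-test over days missed the threshold with 4 lines (FDR of 0.0169) and passed it without WT#20D-17 (FDR of 0.002), with FDRs of 0.0238 without WT#1-4, 0.148 without Nox4-/- #5-8 and 0.196 without Nox4-/- #5-23.

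Jak1, the kinase on which gp130 signalling mainly depends, was past the threshold on day 14 and on no earlier day. It was 99.7, 95.5, 99.4, 134.7 and 183.5 CPM in WT#1-4 and 59.1, 75.5, 80.4, 72.5 and 96.2 CPM in WT#20D-17. Nox4-/- #5-8 had 65.0, 77.2, 108.1, 103.4 and 110.0 CPM, and Nox4-/- #5-23 had 68.5, 64.8, 88.6, 94.9 and 156.1 CPM. Day 14 was the highest library in each of the 4 lines, and 13 of the 16 later libraries lay above day 0. The fitted log2 change on day 14 was 0.9 ± 0.16 (edgeR FDR of 0.000299), and it was 0.954 without WT#20D-17. Without Nox4-/- #5-23 the change was 0.767 and missed the threshold (edgeR FDR of 0.0123), as it did without the block (edgeR FDR of 0.015). The F-test over days lost Jak1 without WT#1-4, Nox4-/- #5-8 or Nox4-/- #5-23 (FDRs of 0.0355, 0.0194 and 0.0988). Exons of Jak1 overlap those of Raver2 on the opposite strand, which had at most 1031 counts, and the sources do not give RSEM's strand setting.

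Jak2, a further kinase of the receptor, rose in all 4 lines. It was 13.98, 18.7, 21.6, 27.4 and 58.9 CPM on the 5 days of WT#1-4, and 10.6, 25.1, 33.2, 35.7 and 47.8 CPM in WT#20D-17. In the knockout lines it was lower, with 4.51, 7.01, 11.4, 12.8 and 16.3 CPM in Nox4-/- #5-8 and 5.24, 13.0, 20.9, 19.4 and 38.2 CPM in Nox4-/- #5-23. On each of the 5 days both WT lines stood above both Nox4-/- lines, on day 5 with 21.6 CPM in WT#1-4 beside 20.9 in Nox4-/- #5-23. How many of all genes separate the 4 lines in this way was not counted. With the line as the unit, the log2 difference of Jak2 was -0.88 ± 0.43 (edgeR quasi-likelihood FDR of 0.619). All 16 later libraries lay above day 0 of their line. The log2 change on day 14 was 2.23 ± 0.21 (edgeR FDR of 2.31e-06), with 1.34 on day 5 and 1.46 on day 7 also past the threshold (FDRs of 0.00138 and 0.000275). The day 5 call was lost without Nox4-/- #5-8 or Nox4-/- #5-23 (FDRs of 0.0273 and 0.0444), and that of day 7 without Nox4-/- #5-23 (FDR of 0.0104). On day 14 the change was 2.24 without WT#20D-17 (edgeR FDR of 1.33e-05).

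Stat3, which carries the signal to the nucleus, lay between 177.7 and 225.0 CPM in WT#1-4, with its highest level on day 0. The line WT#20D-17 had 33.5, 75.4, 139.9, 125.6 and 220.7 CPM, a 6.59-fold difference between the first and last day. It went from 113.2 to 189.2 CPM in Nox4-/- #5-8 and from 174.6 to 240.5 CPM in Nox4-/- #5-23. On day 14 the lines had come within 189.2 to 240.5 CPM of each other. The log2 change on day 14, 0.86 ± 0.3, missed the threshold (edgeR FDR of 0.0285), and without WT#20D-17 it was 0.352 (edgeR FDR of 0.0848). Exons of Stat3 overlap those of Stat5a on the opposite strand, which had at most 1594 counts.

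Of the SOCS genes, Socs1, an inhibitor of JAK kinases, was scarce, at 1.19 to 2.18 CPM in WT#1-4, 1.48 to 3.41 in WT#20D-17, 0.399 to 1.53 in Nox4-/- #5-8 and 0.223 to 0.693 in Nox4-/- #5-23, from 6 to 65 counts. In 14 of 16 later libraries it was above day 0, but the day 14 log2 change of 1.12 ± 0.37 missed the threshold (edgeR FDR of 0.0239). Socs2, induced by STAT5, was 31.9, 43.8, 42.2, 35.8 and 41.0 CPM in WT#1-4, where every later library was above day 0. It fell from 120.5 through 44.7, 15.0 and 14.5 to 6.67 CPM in WT#20D-17, from 48.8 to 10.8 CPM in Nox4-/- #5-8 and from 62.0 to 16.95 CPM in Nox4-/- #5-23. In these 3 lines all later libraries lay below day 0, and day 0 was 18.1-fold, 4.52-fold and 3.65-fold above day 14. The fitted log2 change on day 14 was -2.06 ± 0.49 (edgeR FDR of 0.00312) with 4 lines, and -1.21 without WT#20D-17, which missed the threshold (edgeR FDR of 0.0177). It missed it also without Nox4-/- #5-8 (-2.07, edgeR FDR of 0.0276), without Nox4-/- #5-23 (-2.16, edgeR FDR of 0.0297) and without the block (edgeR FDR of 0.0221).

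Socs3, the inhibitor of gp130 signalling, had the largest fitted change of the members, and it rose in every line. In WT#1-4 it was 4.41, 12.6, 13.9, 29.3 and 80.5 CPM on days 0, 3, 5, 7 and 14. The line WT#20D-17 had 6.52, 26.9, 48.5, 33.9 and 52.8 CPM. Day 0 was the lowest library of both WT lines, and WT#20D-17 had the highest level of the 4 lines on days 3, 5 and 7. In Nox4-/- #5-8 the level was 4.95, 11.2, 16.98, 22.0 and 44.1 CPM, and in Nox4-/- #5-23 it was 7.77, 7.93, 23.3, 32.1 and 43.6 CPM. All 16 libraries of later days lay above day 0 of their line, although in Nox4-/- #5-23 the counting intervals of days 0 and 3 overlapped (6.78 to 8.9 and 6.83 to 9.2 CPM).

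The F-test over days called Socs3 with an edgeR FDR of 4.9e-05. Its fitted log2 change from day 0 was 1.17 ± 0.33 (SE) on day 3, 1.95 ± 0.33 on day 5, 2.26 ± 0.34 on day 7 and 3.25 ± 0.35 on day 14, with FDRs of 0.142, 0.00272, 0.00037 and 4.91e-06. The fold between day 0 and day 14 was 18.3 in WT#1-4, 8.11 in WT#20D-17, 8.92 in Nox4-/- #5-8 and 5.61 in Nox4-/- #5-23. The day 5 call was lost without Nox4-/- #5-8 or Nox4-/- #5-23 (FDRs of 0.0433 and 0.0193). Without WT#20D-17 the log2 change on day 14 was 3.29, with an edgeR FDR of 8.07e-06. Socs3 stayed called by the F-test whichever line was left out, and also without the block.

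Socs3 spans chr11:117966079-117970047 of GRCm38 and is read from the minus strand. Its promoter is printed because Socs3 moved in every line and because STAT dimers bind the palindrome TTCNNNGAA, which reads the same on both strands and overlapped no other match here. The RefSeq window of 250 bases before and 50 bases after the start (GRCm38.p6, minus strand, chr11:117969317-117969616) held 1 match, shown in capitals, with its first base at position -154 from the start. That position counts from the RefSeq start. The window lies within the GENCODE span given above, which begins further upstream, at 117970047.

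Socs3: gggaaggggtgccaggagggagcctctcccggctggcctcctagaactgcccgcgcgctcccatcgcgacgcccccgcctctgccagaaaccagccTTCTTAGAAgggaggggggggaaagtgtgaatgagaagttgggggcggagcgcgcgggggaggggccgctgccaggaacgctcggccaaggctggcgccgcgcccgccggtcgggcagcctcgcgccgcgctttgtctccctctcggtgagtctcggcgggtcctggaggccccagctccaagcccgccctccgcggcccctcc

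RefSeq windows were found for 9 of the 10 members, all but Socs2, and Lifr has 2. Among these 10 windows that of Socs3 was the only one with the motif. Of all 32851 windows of the same length in the table, 2726 (8.3%) held it, so the letters occur in many promoters, and a match is not evidence of binding.

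**Figure D3:**
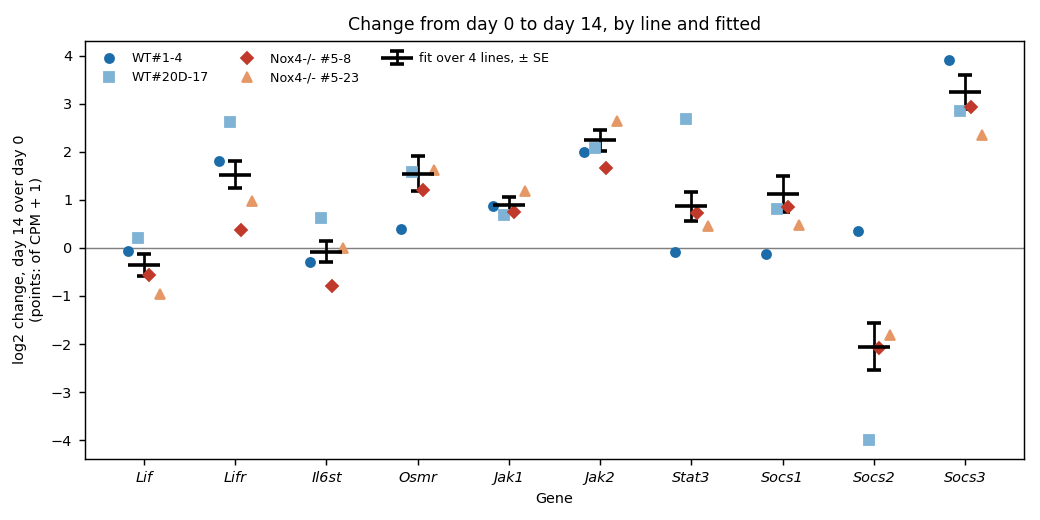
Change of each member from day 0 to day 14 on a log2 scale. Coloured points are single lines, from CPM with 1 added, and black marks are the edgeR fit over the 4 lines with its SE. Socs3 and Jak2 lie above 0 in all 4 lines. WT#20D-17 lies farthest from the other lines for Stat3, and for Socs2 WT#1-4 alone lies above 0.

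The genotypes were next compared with the 5 days of a line pooled, by edgeR's exact test, in which days stand in for replicates although they are repeated samples of a clone. Against WT#1-4, the Nox4-/- lines differed in 1 member, where 5.62% of 33860 genes were called, 3.97% of them lower and 1.65% higher in Nox4-/-. That member was Lifr, with a mean of 86.9 CPM in 10 Nox4-/- libraries and 196.6 CPM in 5 of WT#1-4, a 2.26-fold difference (log2 of -1.18 ± 0.25, FDR of 0.000293). Here and in the other pooled comparisons, SEs come from a separate quasi-likelihood fit of the same libraries and not from the exact test. On every day both Nox4-/- lines were below WT#1-4. Without Nox4-/- #5-8 the difference, -1.03, missed the threshold (edgeR FDR of 0.0449), and Lif and Socs1 passed instead (FDRs of 4.46e-05 and 0.001). Socs1 was 2.42-fold lower in Nox4-/- and just missed the threshold (edgeR FDR of 0.013), and Lif was 1.8-fold higher with an edgeR FDR of 0.045. With day as a block in the quasi-likelihood test, 4 members passed, Lifr, Osmr, Jak2 and Socs1, where 8.04% of genes did.

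Against WT#20D-17 the same test called 3 members, where 25.8% of genes were called, 9.83% higher and 16% lower in Nox4-/-. Osmr was 217-fold higher in Nox4-/- (log2 of 7.76 ± 0.62, edgeR FDR of 1.16e-29). Il6st was 1.63-fold lower (edgeR FDR of 0.00118) and Socs1 was 2.96-fold lower (edgeR FDR of 0.000358). Lifr, the gene called against WT#1-4, was 75.4 CPM on average in WT#20D-17 and 86.9 in Nox4-/-, a log2 difference of 0.2 ± 0.32 (edgeR FDR of 0.821). These comparisons share the Nox4-/- libraries. Pooled over both WT lines, where 12.1% of genes were called, Lifr had a log2 difference of -0.646 (edgeR FDR of 0.219), while Socs1 (-1.43, FDR of 0.000363) and Lif (0.862, FDR of 0.00351) passed.

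Lines of the same genotype differed as well. Between the WT lines, 17.7% of genes were called and 1 member, Osmr, which was 133-fold lower in WT#20D-17 (edgeR FDR of 3.68e-22). Lifr was 2.64-fold lower in WT#20D-17 without passing (edgeR FDR of 0.0221). Between the Nox4-/- lines, 2.19% of genes were called and 0 members. The only unadjusted p under 0.05 was that of Lif, 1.84-fold higher in Nox4-/- #5-23 (edgeR FDR of 0.0218). The marker sums given above differed between the WT lines too, and their part in these differences was not tested.

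**Figure D4:**
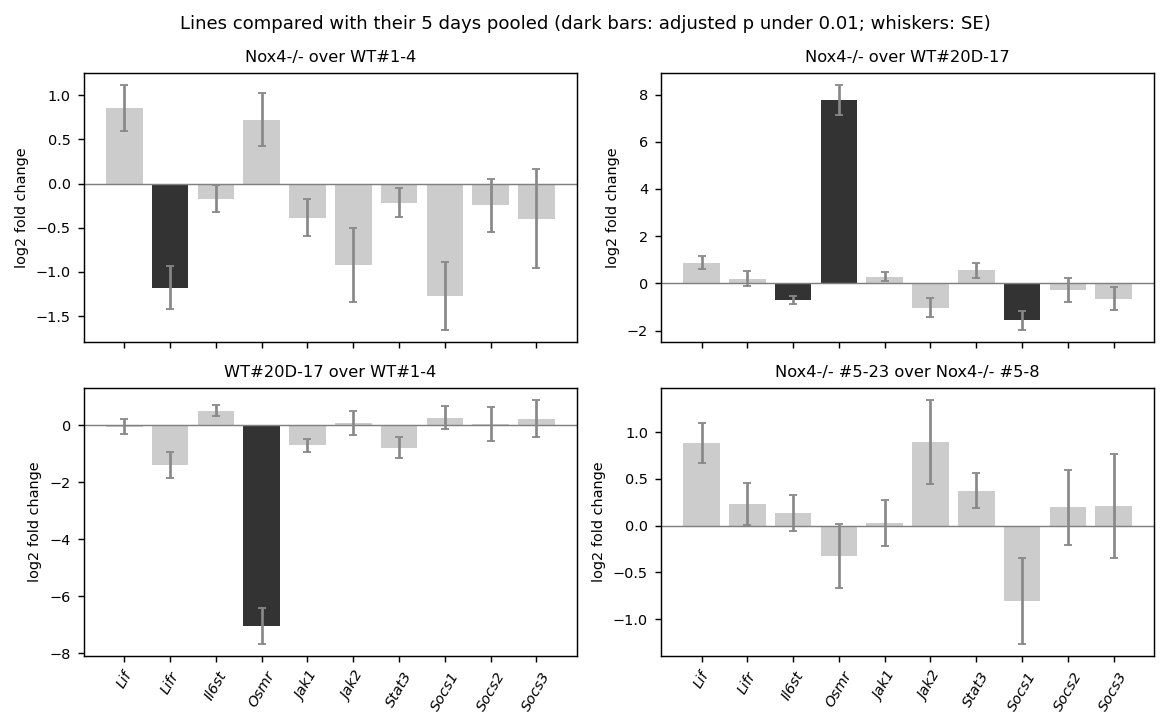
Log2 fold change of each member between lines with the 5 days pooled, in 4 comparisons with differing axes. Dark bars passed an FDR of 0.01 in edgeR's exact test and whiskers are SEs of the quasi-likelihood fit. Osmr passed in both comparisons that include WT#20D-17 alone on one side, and Lifr passed against WT#1-4 alone.

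With the line as the unit, 2 WT against 2 Nox4-/- lines after summing the days, edgeR's quasi-likelihood test called 0% of 20229 genes at an FDR under 0.05 and 0 members, and 1628 genes (8.05%), of which 0 were members, had an unadjusted p under 0.05. DESeq2's Wald test on the same sums called 1299 genes and 0 members. The members' smallest p was that of Socs1, 0.083, with a log2 difference of -1.4 ± 0.61, and that of Jak2 was 0.11. Osmr had the largest difference, 1.71, with an SE of 2.02. Whether the genotypes changed differently over days was tested by an interaction of genotype and day. It called 2 of 19240 genes (0.0104%) in edgeR, both outside the members, and 1391 (7.23%) at an unadjusted p under 0.05, among them 1 member. DESeq2's likelihood ratio test called 192 genes and 0 members. That member was Lifr, whose FDR from the edgeR model was 0.577. Its rise to day 14 was smaller in Nox4-/- by -1.56 ± 0.39 on the log2 scale (edgeR FDR of 0.101).

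Other cytokines of the gp130 family were mostly at low levels. Of 9 listed, 5 passed the expression filter, and the F-test over days called 2, Ctf1 (cardiotrophin 1) and Clcf1 (cardiotrophin-like cytokine). On day 14, 2 were higher and 1, Cntf, was lower. Of all genes tested, 16.4% were called over days, and 13.6% were higher and 13% lower on day 14. Between days 0 and 14 Clcf1 went, in CPM, from 1.79 to 27.5 in WT#1-4 and from 3.2 to 5.88 in WT#20D-17. In Nox4-/- #5-8 it was 3.19 CPM on day 0 and 9.41 on day 14, and in Nox4-/- #5-23 it was 0.112 and 4.89 CPM. Ctf1 had a log2 change on day 14 of 2.67 ± 0.47 and Clcf1 of 2.7 ± 0.52 (edgeR FDRs of 0.000304 and 0.000678). The fall of Cntf, -1.59 ± 0.42 (edgeR FDR of 0.00621), came from levels at or below 2.34 CPM in every library. Clcf1 lost its call without WT#1-4 or Nox4-/- #5-23 (edgeR FDRs of 0.0193 and 0.0105), Ctf1 without Nox4-/- #5-8 (0.0121), and Cntf without WT#20D-17 or either Nox4-/- line (0.0353, 0.018 and 0.0967).

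Of 5 other receptor chains, 4 passed the filter and 2 were called over days and higher on day 14. Among all genes, 16.4% were called over days and 13.6% were higher on day 14. Il6ra, the specific chain of interleukin-6, was 5.13 CPM on day 0 and 23.0 on day 14 in WT#1-4, and 0.984 and 9.55 CPM in WT#20D-17. Nox4-/- #5-8 had 0.479 and 1.53 CPM on these days, and Nox4-/- #5-23 had 6.24 and 21.4 CPM. Il11ra1, the interleukin-11 chain, was 21.02 to 38.2 CPM on day 14 in 3 lines and 14.8 in Nox4-/- #5-23, above day 0 in each line. Their log2 changes were 2.22 ± 0.33 and 1.75 ± 0.3 (edgeR FDRs of 6.84e-05 and 0.000258). Il11ra1 missed the threshold without Nox4-/- #5-8 (edgeR FDR of 0.0126). Cntfr and Il27ra, the chains for ciliary neurotrophic factor and interleukin-27, had changes of 0.55 ± 0.44 and 0.08 ± 0.49 that did not pass.

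All 8 other JAK and STAT genes were tested, 3 were called over days and 4 were higher on day 14, with a median log2 change of 0.71. Over all genes, 16.4% were called over days and 13.6% were higher on day 14, with a median of 0.04. Stat5a, which acts after growth hormone and prolactin, rose in each line. It was 13.4 CPM on day 0 and 43.5 on day 14 in WT#1-4, 7.25 and 17.5 CPM in WT#20D-17, 11.2 and 69.5 CPM in Nox4-/- #5-8, and 13.4 and 52.7 CPM in Nox4-/- #5-23. Its log2 change was 1.85 ± 0.24 (edgeR FDR of 2.78e-05). Exons of Stat5a overlap those of Stat3 on the opposite strand, which had up to 6597 counts, and RSEM's strand setting is not given. Stat2, of the interferon pathway, changed by 1.22 ± 0.23, and Jak3, the partner of the common gamma chain, by 1.36 ± 0.32 (edgeR FDRs of 0.000476 and 0.0027). Tyk2, a further kinase of gp130, rose by 0.75 ± 0.17 (edgeR FDR of 0.00222). The 4 kept their direction and passed without WT#20D-17. Jak3 was lost without Nox4-/- #5-8 or Nox4-/- #5-23 (edgeR FDRs of 0.0224 and 0.0231), and Tyk2 without Nox4-/- #5-23 (0.028).

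The 12 other SOCS genes and negative regulators were all tested. Over days 1 was called, and on day 14, 2 were higher and 1 lower, with a median of 0.24. Over all genes, 16.4% were called over days, and 13.6% were higher and 13% lower on day 14. The counts of this list are therefore not a result about it. The call was Cish, the SOCS family member induced by STAT5, which was 15.5, 23.2, 24.9, 51.6 and 76.8 CPM in WT#1-4 and 5.78, 13.0, 21.5, 13.6 and 31.0 CPM in WT#20D-17. The Nox4-/- levels were 15.9, 24.9, 46.8, 48.0 and 75.5 CPM in Nox4-/- #5-8 and 19.4, 29.3, 48.7, 48.0 and 60.6 CPM in Nox4-/- #5-23. Day 0 was the lowest library in every line and day 14 the highest, as with Socs3, and unlike Socs2. Its log2 change on day 14 was 2.16 ± 0.22 (edgeR FDR of 3.79e-06). The RefSeq window of Cish held the motif at 2 places, TTCCTGGAA and TTCTTGGAA, starting at positions 1 and 12 from the start, a number that 150 windows (0.457%) of the table reached or exceeded. Pias1, a SUMO ligase that restrains STATs, was higher on day 14 (log2 of 1.43 ± 0.31, edgeR FDR of 0.00171), with 283.2 CPM in WT#1-4 and 60.1 to 116.0 in the other lines, but not past the threshold without Nox4-/- #5-23 (edgeR FDR of 0.0186). The phosphatases Ptpn2 and Ptpn6 had log2 changes of -0.59 ± 0.17 and -0.8 ± 0.27, which did not pass (edgeR FDRs of 0.0101 and 0.0257).

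Of 9 genes known as STAT3 targets in mouse pluripotent cells, all were tested, 3 were called over days, and on day 14, 2 were higher and 2 lower. The shares of all genes were 16.4% over days, and 13.6% higher and 13% lower on day 14. Myc, which the vectors also carried, was 400.9 to 1337 CPM in WT#1-4 and 16.4 to 50.9 CPM in WT#20D-17, and day 14 was below day 0 in each line (log2 of -1.28 ± 0.21, edgeR FDR of 0.000172). Junb, an immediate early transcription factor, rose by 1.63 ± 0.29 (edgeR FDR of 0.000363). Tfcp2l1, which maintains naive pluripotency, was between 70.5 and 106.4 CPM in WT#20D-17 and between 0.483 and 10.3 CPM in the other lines, and was above day 0 on day 14 in each (log2 of 1.57 ± 0.32, edgeR FDR of 0.00105). Gbx2, another such gene, fell from 10.8 to 0.315 CPM in WT#20D-17. It was at or below 2.06 CPM in every library of the other lines. Its change on day 14 passed with WT#20D-17 (edgeR FDR of 0.0078). The change did not pass without that line (edgeR FDR of 0.0871), without WT#1-4 (0.0179) or without Nox4-/- #5-23 (0.0658). The call of Junb was lost without Nox4-/- #5-8 (edgeR FDR of 0.0147), and that of Tfcp2l1 without WT#1-4 or Nox4-/- #5-23 (0.0118 and 0.0203). Thus the 4 targets that changed did not share a direction.

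**Figure D5:**
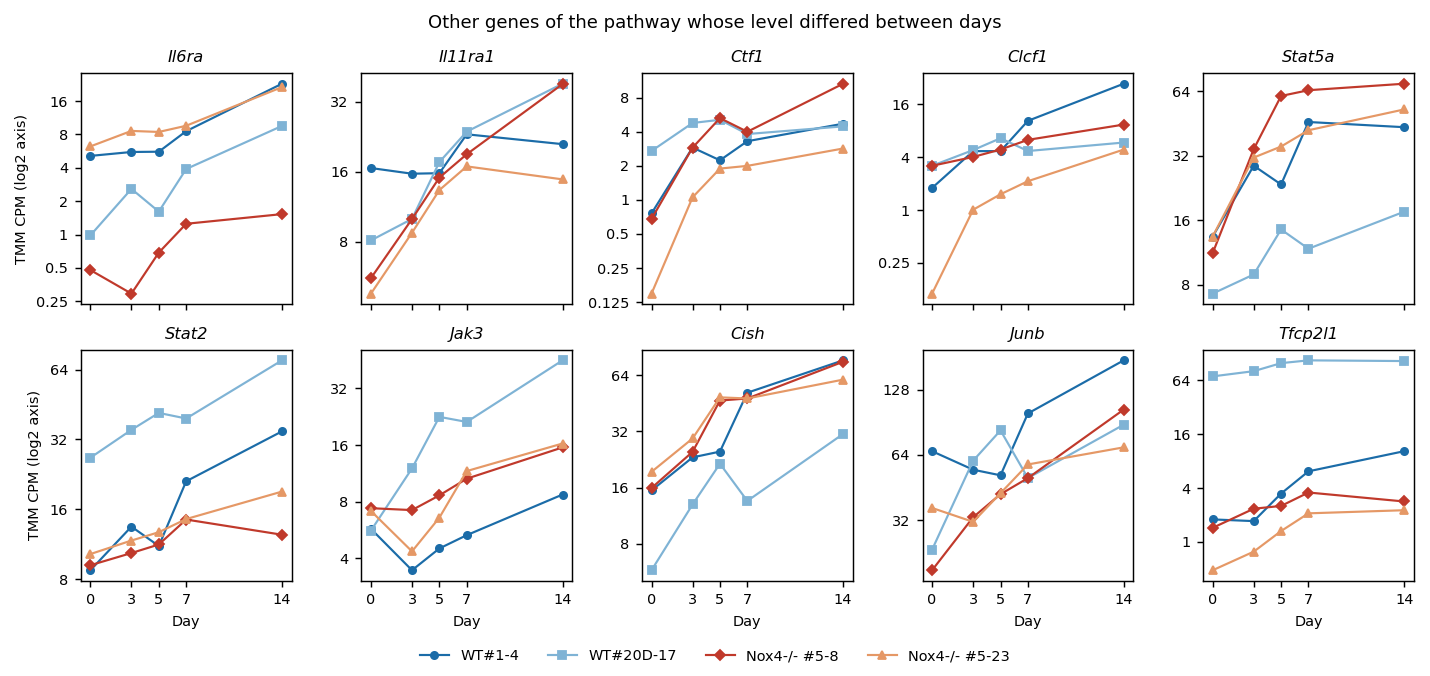
TMM-scaled CPM (log2 axes that differ between panels) of 10 other genes of the pathway that the F-test over days called, against day, with 1 point per library. Myc, which the F-test also called (FDR of 0.00265) and which was lower on day 14, is not drawn. Stat5a and Cish rose from day 0 in all 4 lines, and Tfcp2l1 was above 70 CPM in WT#20D-17 and at or below 10.3 CPM in the other lines.

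In pattern over the 20 libraries, the genes most like Socs3 in the set of 11522 genes whose mean was 5 CPM or more were Ssh3, Fam214b, Mvp, Smpd1 and Pld2, with Pearson's r of log2 CPM, after adding 1, from 0.944 to 0.956. Those most like Lifr were Mindy2, Arntl, Mprip, Phc3 and Tyk2, with r from 0.916 to 0.936. Without the libraries of WT#20D-17 these ranges were 0.935 to 0.97 and 0.858 to 0.936. The libraries of a line share their cells of origin, so these values only describe the table.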

How the data were processed

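RNA was taken from EB cultures of 4 iPSC lines on 5 days, in 20 stranded mRNA libraries. The authors aligned reads to mouse with STAR 2.6.0c, obtained expected counts per gene from RSEM 1.3.1, versions as in the submitters' processing notes, and deposited these expected counts without normalization. Reads that fit several genes are shared out by RSEM, so 9.92% of the values have decimals. RSEM's strand setting is not given in the sources used here.

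Here the values were rounded, and gene symbols and coordinates were taken from GENCODE M21 (GRCm38), which held 55480 of the 55573 identifiers. R 4.3.3, edgeR 4.0.16 and DESeq2 1.42.0 were used. The pooled comparisons of lines relied on the exact test of edgeR, with TMM scaling, on 33860 genes with a nonzero value, at an FDR under 0.01 (Benjamini-Hochberg over all genes tested). Days, and the interaction of genotype and day, were tested by edgeR's quasi-likelihood test with the line as a block after edgeR's expression filter. The line as a unit was tested on sums over days at an FDR under 0.05. SEs of log2 changes come from quasi-likelihood fits, as the size of the change divided by the square root of its F statistic. The line is the same clone on each day, and deviations of a line from its genotype's mean correlated between days (mean r of 0.772 in WT and 0.594 in Nox4-/-). Nothing says that the days of a line came from separate experiments, so p-values measure only the spread between these libraries.

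Floors are 3 counts per library and intervals are 95% Wilson intervals of the count, scaled to CPM. All tests were tried on simulated counts. Alternatives covered the test, normalization, filter, block, lines and days, and leaving out days in the day test was added after the data were seen. Members and gene lists were chosen with earlier results of these data known. The text names all 10 members, up to 4 genes of each other list with the smallest FDR over days, and the 5 genes most like Socs3 and Lifr. One ligand gene that this rule names is not reported here. Other list genes are given as counts, apart from Nanog, Zfp42, Esrrb, Dppa5a, Fgf4, Tdgf1, Utf1, Pou5f1, Sox2 and Klf4, which were named after their values were seen.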

Additional observations from a re-analysis of the deposited data

How the results depend on the processing

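As a line or a day was left out, the F-test over days called between 610 and 4002 genes and 2 to 4 members. Against day 0, calls ranged from 2479 to 5830 on day 14, from 194 to 2943 on day 7, from 14 to 728 on day 5 and from 0 to 91 on day 3. The interaction of genotype and day called 0 to 666 genes and 0 members, and the test with the line as the unit 0 to 4400 genes and 0 to 1 members. The upper ends of both came without WT#1-4, where the member called was Osmr. The pooled comparison with WT#1-4 called 1114 to 1994 genes and 1 to 2 members.

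Without the replicate block for the line, calls fell to 624 over days with 1 member, Socs3, to 1701, 143, 0 and 0 on days 14, 7, 5 and 3, and to 0 for the interaction. DESeq2 called 5095 genes and 6 members over days (Osmr and Socs2 beside the 4), the same 6 as without the expression filter, 192 for the interaction and 1299 with the line as the unit, and 2 members in the pooled comparison. The interaction called 11 genes when every gene with a nonzero value was tested. In the pooled comparison, the quasi-likelihood test called 1228 genes, both WT lines together 4101, and day as a replicate block 4 members. Upper quartile and relative log expression scaling, edgeR's expression filter and both WT lines each gave 2 members there, in the first 3 Lifr and Socs1. The cause of these changes was not tested.

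Of 553 alternatives for single genes, 473 kept direction and side of the threshold, 50 lost a call, 17 gained one and 13 turned in sign, 0 of these past the threshold. On day 14, Il6st was 0.01207 without the block and ranged from -0.32 to 0.069 as lines were left out, and Il27ra from -0.29 to 0.67 (-0.17 without the block). Il6st ranged from -0.18 to 0.0397 on day 3, -0.071 to 0.22 on day 5 and -0.043 to 0.24 on day 7. Stat3 on day 3 ranged from -0.16 to 0.23 and was -0.067 without the block, and its genotype difference was 0.12 with both WT lines. The genotype difference of Socs3 ranged from -0.53 to 0.085, the latter without day 14. With 2 clones per genotype and 1 library per line and day, genotype and clone cannot be told apart. Socs1, at 6 to 65 counts, and Osmr in WT#20D-17, at 7 to 54, are the members limited by depth.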
